A study of Mus musculus with 4 samples.

Results

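The amino acid stress genes *Asns*, *Trib3*, *Chac1*, *Sesn2*, *Ddit4*, *Atf4*, *Atf5* and *Nupr1* and the serine synthesis genes *Phgdh* and *Psat1*, 10 members in all, were followed across the livers of this series. They were chosen by name, and their probes were found through the transcript accession of each array spot, which gave 14 probes for the 10 members out of 23462 genes named on the array. Whole liver of male mice fasted for 12 h was hybridized to 4 one-colour expression arrays, 1 per group. The groups were aging diabetic mice given astragalus polysaccharide (APS, from the root of a medicinal plant) together with metformin, aging diabetic mice on metformin alone (a biguanide, used against high blood glucose), untreated aging diabetic mice, and naturally aging mice. All 3 diabetic groups share aging and diabetes, and both treated groups share metformin. Strain, age, doses, the way diabetes was induced, what the 60 days in the titles refer to, and whether an RNA came from 1 mouse or from several are not given in the sources used here. With 1 array per group no test was possible, and "higher" and "lower" describe these 4 arrays.

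When amino acids run short, uncharged tRNA activates the kinase GCN2 (*Eif2ak4*), which phosphorylates the translation factor eIF2. General translation slows while translation of the *Atf4* mRNA rises, so ATF4 protein can increase with little change in its mRNA. ATF4 then raises transcription of genes for amino acid synthesis, amino acid uptake and tRNA charging, and of genes that restrain the response. The same branch is reached through other eIF2 kinases, such as PERK (*Eif2ak3*) during stress of the endoplasmic reticulum (ER). Liver is the main organ of amino acid breakdown, and in fasting it handles amino acids released from muscle.

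ATF4 binds, with C/EBP partners, a composite element whose core was written as TGATGNAA for a search of both strands, with N for any base. In the window from 250 bases before to 50 bases after each gene start (RefSeq promoters, GRCm38.p6), 4 of the 10 members held the core. Of all 27025 genes with a window 4.51% held it, and of all 32851 windows 3.97%. All 10 members had a promoter window, *Atf5* and *Psat1* having 2 each. The members were chosen as genes of this pathway, so their share beside that of all genes is no test. Whether the matches bear on differences between arrays was not tested. The 100 bases around each match, in *Asns*, *Trib3*, *Chac1* and *Nupr1*, are shown. They lie on the minus strand at chr6:7693180-7693279 (*Asns*), chr2:152344031-152344130 (*Trib3*) and chr7:126625527-126625626 (*Nupr1*), and on the plus strand at chr2:119351003-119351102 (*Chac1*). Each is written 5′ to 3′ along its gene, with the match in capitals.
Asns: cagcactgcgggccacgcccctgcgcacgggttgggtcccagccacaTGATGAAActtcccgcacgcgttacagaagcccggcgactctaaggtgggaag
Trib3: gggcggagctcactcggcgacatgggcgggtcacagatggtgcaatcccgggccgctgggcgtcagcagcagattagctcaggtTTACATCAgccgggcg
Chac1: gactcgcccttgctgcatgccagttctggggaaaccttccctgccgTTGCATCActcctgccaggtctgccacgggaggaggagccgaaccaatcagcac
Nupr1: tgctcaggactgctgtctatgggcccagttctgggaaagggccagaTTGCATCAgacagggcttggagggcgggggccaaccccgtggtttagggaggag
The match began at base -23 in *Asns*, on the gene's own strand, at base 15 in *Trib3*, at base -193 in *Chac1* and at base -110 in *Nupr1*, the last 3 on the opposite strand, with base 1 at the gene start. *Chac1* and *Nupr1* shared the same letters at the match. The ER stress element, CCAAT and CCACG with 9 bases of any kind between them, was found in none of the 10 members' windows on either strand, against 0.119% of all windows. A match is a description of letters, and binding was not measured.

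Levels are given as the log2 of the probe's processed signal over the 75th percentile of its array, so 0 is the signal that 75% of spots stay below. The error beside a difference is the error that the image analysis gives for both spots combined; it covers measurement and holds no spread between animals. A difference of 1 log2 (2-fold) was the threshold for calling a probe higher or lower. Between 33668 and 37402 of 59305 spots per array were well above background, and none was saturated. All 8 measured hepatocyte marker genes were well above background on every array, with a median level of 4.11 on the APS plus metformin, 3.77 on the metformin, 4.10 on the aging diabetic and 4.37 on the natural aging array. Markers of the exocrine pancreas were measured too, and their values stand below beside the members they move with. Of the 12 member probes well above background on all 4 arrays, 5 spanned at least 2-fold between their highest and lowest array, against 29.4% of 24363 such probes on the array.

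*Atf4* and *Atf5* encode the leucine zipper transcription factors of the pathway, and neither mRNA differed by 2-fold between any arrays. *Atf4* probe A_55_P1979728 stood at 3.04 on the APS plus metformin, 2.86 on the metformin array, and 0.05 ± 0.16 log2 below the first of these on both the aging diabetic and the natural aging array. Its other probe, A_52_P139727, stood at 3.08, 2.66, 3.07 and 3.04 on the same arrays in that order. Both *Atf4* probes were lowest on the metformin array, where they differed by -0.14 ± 0.16 and -0.41 ± 0.16 log2 from the aging diabetic array, though for the first the sign turned with the scaling, up to 0.02 log2. *Atf5* probe A_55_P2105858 was at 3.73 in APS plus metformin, 3.50 in metformin, 3.74 in aging diabetic and 3.81 in natural aging liver. The second *Atf5* probe, A_51_P269216, had a spot flagged as an outlier on the metformin array and no value there. It stood at 3.93 in APS plus metformin, 3.96 in aging diabetic and 3.86 in natural aging liver.

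*Trib3*, a pseudokinase that ATF4 induces and that in turn restrains ATF4 and AKT, was lowest in natural aging liver. Probe A_55_P2009988 stood at 1.95 on the APS plus metformin, 1.96 on the metformin, 1.24 on the aging diabetic and -0.79 on the natural aging array. All 3 diabetic arrays were therefore above the natural aging array, and both treated arrays were level with each other. *Trib3* was 4.10-fold higher in aging diabetic than in natural aging liver (2.04 ± 0.17 log2). It was higher still with treatment, short of 2-fold, by 0.71 ± 0.16 log2 in metformin and by 0.71 ± 0.16 log2 in APS plus metformin against aging diabetic liver. Against natural aging liver it was 6.73-fold higher with metformin and 6.72-fold higher with APS plus metformin.

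*Nupr1* encodes a small stress-induced chromatin protein and was the member that set the combination apart from metformin alone, together with 1 probe of *Psat1* and both probes of *Asns*. Its probe A_51_P519251 stood at -0.48 in APS plus metformin, 1.70 in metformin, 1.06 in aging diabetic and 1.25 in natural aging liver. The APS plus metformin array was low and the other 3 lay within 0.64 log2 of each other. *Nupr1* was 4.54-fold lower in APS plus metformin than in metformin liver (-2.18 ± 0.16 log2) and 2.91-fold lower than in aging diabetic liver (-1.54 ± 0.16). In aging diabetic against natural aging liver it differed by -0.19 ± 0.16 log2.

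*Sesn2* and *Ddit4* encode stress-induced inhibitors of the growth kinase mTORC1: sestrin 2, which binds GATOR2 and senses leucine, and REDD1, which acts through the TSC complex. Both stayed within 2-fold. *Sesn2* probe A_51_P161354 stood at 0.93 in APS plus metformin, 0.77 in metformin, 1.11 in aging diabetic and 0.66 in natural aging liver. Its widest difference was 0.45 ± 0.16 log2, higher in aging diabetic than in natural aging liver. *Ddit4* probe A_51_P245796 stood at 3.25, 2.67, 2.36 and 3.04 in the same groups and order. It was lowest in aging diabetic liver, where it differed by -0.68 ± 0.16 log2 from natural aging liver. APS plus metformin liver was 0.89 ± 0.16 log2 above aging diabetic liver for *Ddit4*, just inside the threshold.

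*Asns* encodes asparagine synthetase, which makes asparagine from aspartate and glutamine and is a standard marker of the response. Its processed signal, before scaling, was 1993 ± 161 on the APS plus metformin, 6312 ± 506 on the metformin, 832 ± 71 on the aging diabetic and 5537 ± 444 on the natural aging array by probe A_55_P1959748 (error of the spot). After scaling this probe stood at -0.77, 0.81, -1.88 and 1.04 in that order. The metformin and natural aging arrays were high, the aging diabetic array was low, and the combination lay between them. The second probe, A_66_P133222, had the same order, with -2.79 in APS plus metformin, -1.08 in metformin and -0.69 in natural aging liver, and was not well above background in aging diabetic liver.

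*Asns* was 7.57-fold lower in aging diabetic than in natural aging liver (-2.92 ± 0.17 log2), and at least 16.7-fold lower by the second probe (-4.07 ± 0.42). It was 6.49-fold higher in metformin than in aging diabetic liver (2.70 ± 0.17), and at least 12.8-fold higher by the second probe (3.67 ± 0.42). Metformin and natural aging liver differed by -0.22 ± 0.16 and -0.39 ± 0.17 log2 by the 2 probes. In APS plus metformin liver *Asns* was 2.16-fold higher than in aging diabetic liver (1.11 ± 0.17), and at least 3.90-fold higher by the second probe (1.96 ± 0.43). It was 3.01-fold and 3.27-fold lower there than in metformin liver. Under another background correction (normexp) the bounds of the second probe were nearer 0, at -3.10, 2.63 and 1.23 log2 in the order given, and the first probe's difference between APS plus metformin and aging diabetic liver was 0.98 log2, just short of 2-fold.

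*Chac1* encodes a γ-glutamyl cyclotransferase that breaks down glutathione, and it did not follow *Asns*. Probe A_51_P134812 stood at -1.22 in APS plus metformin, -1.96 in metformin, -1.01 in aging diabetic and 1.67 in natural aging liver. The natural aging array was high and all 3 diabetic arrays were low. *Chac1* was 6.44-fold lower in aging diabetic than in natural aging liver (-2.69 ± 0.16 log2). Metformin liver was lower again by 0.94 ± 0.17 log2, short of 2-fold, in the same comparison in which *Asns* was 6.49-fold higher. Against natural aging liver *Chac1* was 12.4-fold lower with metformin and 7.41-fold lower with APS plus metformin.

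*Phgdh*, *Psat1* and *Psph* encode the 3 consecutive enzymes that make serine from the glycolytic intermediate 3-phosphoglycerate. *Phgdh* probe A_51_P408732 stood at 1.07 in APS plus metformin, 1.01 in metformin, 1.19 in aging diabetic and 1.81 in natural aging liver. It was lower on all 3 diabetic arrays, by 0.62 ± 0.16 log2 in aging diabetic and by 0.81 ± 0.16 log2 in metformin liver, and did not reach 2-fold. The 2 *Psat1* probes, which carry the same transcript accession, disagreed. Probe A_55_P2052290 stood at -3.95 in APS plus metformin, -1.69 in metformin, -1.94 in aging diabetic and -1.54 in natural aging liver, so that the combination alone was low.

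By that probe *Psat1* was 4.78-fold lower in APS plus metformin than in metformin liver (-2.26 ± 0.23 log2) and 4.02-fold lower than in aging diabetic liver (-2.01 ± 0.23). Probe A_66_P121495 stood at -3.34 in APS plus metformin, -3.28 in metformin, -3.23 in aging diabetic and -3.19 in natural aging liver. It spanned 0.15 log2, within the error of a difference, at signals of 296 to 370 where the lowest signal well above background was 114 to 119. *Psph*, the third enzyme, has 1 probe and is not a member; it was at -0.71 in APS plus metformin, 0.24 in metformin, 0.14 in aging diabetic and 1.74 in natural aging liver. It was 3.03-fold lower in aging diabetic and 5.47-fold lower in APS plus metformin than in natural aging liver.

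**Figure D1:**
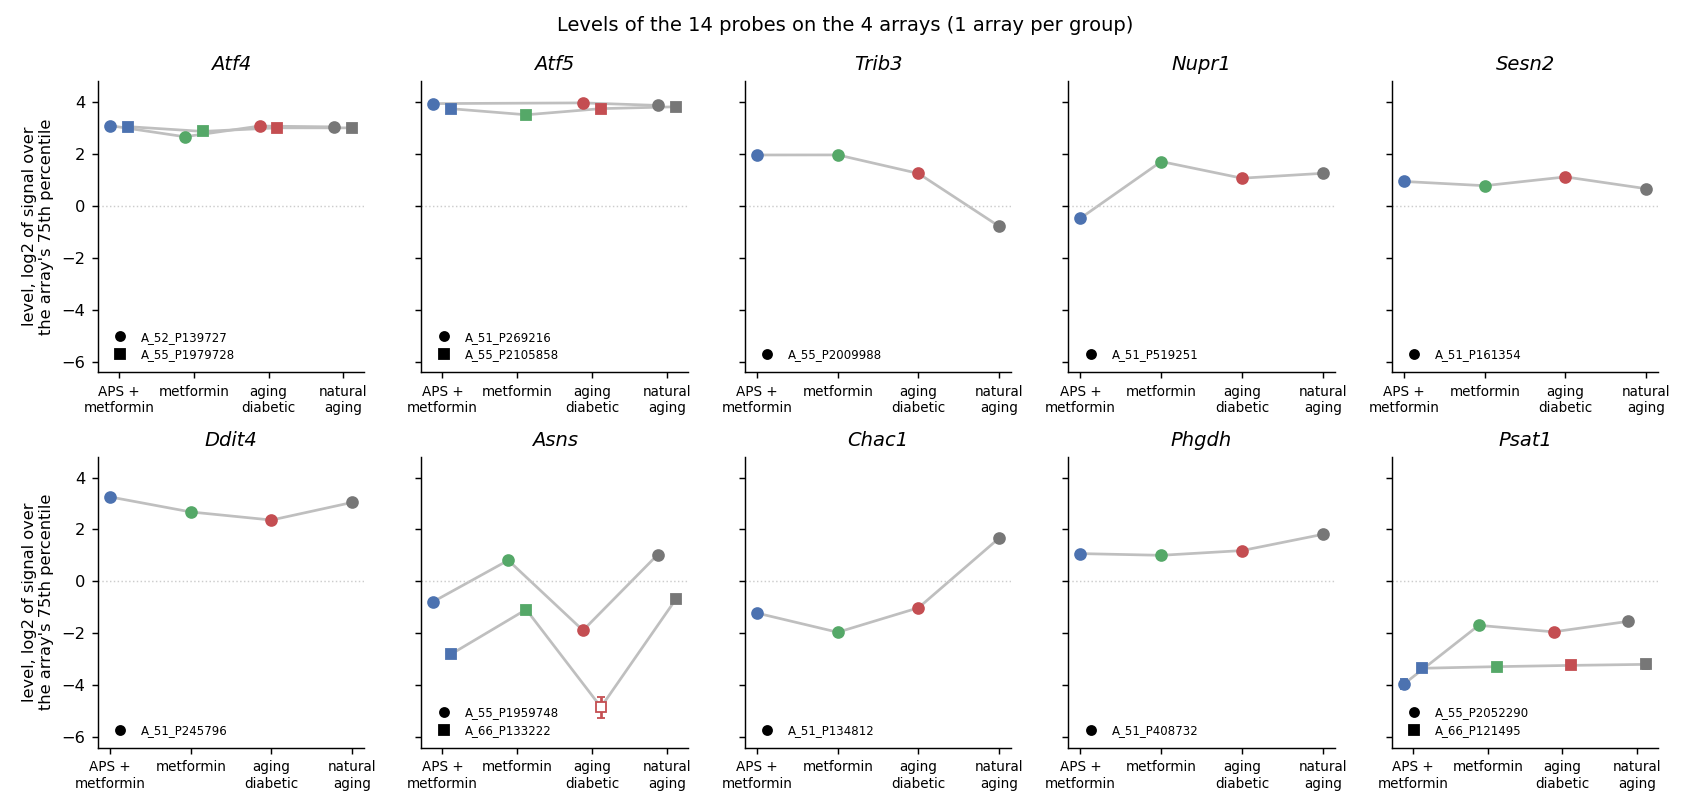
Level of each member probe on each array, as log2 of the processed signal over the array's 75th percentile, with the spot's measurement error as bars (smaller than most points), 1 array per group and circles and squares for the 2 probes of a gene. The open square is the second *Asns* probe on the aging diabetic array, not well above background. *Atf4* and *Atf5* run flat, *Trib3* is lowest in natural aging liver, *Chac1* is highest there, and *Nupr1* and 1 *Psat1* probe are lowest with APS plus metformin.

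Read by comparison, the members did not move as a block. In aging diabetic against natural aging liver, 1 of 14 member probes was higher (*Trib3*, background 7.8% of 30556 probes) and 3 were lower (both of *Asns*, and *Chac1*; background 6.54%). The median difference over the member probes was -0.13 log2, against -0.07 over all probes compared. In metformin against aging diabetic liver, 2 of 13 were higher, both of them *Asns* probes (background 9.54%), and 0 were lower (background 5.23%). In APS plus metformin against aging diabetic liver, 2 of 14 were higher, again both *Asns* probes (background 5.02%), and 2 were lower, *Nupr1* and 1 of *Psat1* (background 6.85%). The median differences of the member probes in these comparisons were -0.05 and -0.02 log2, beside -0.06 and 0.06 over all probes compared. These 3 comparisons share the aging diabetic array.

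Between the 2 treatments, 0 of 13 member probes were higher in APS plus metformin than in metformin liver (background 4.12%) and 4 were lower: both of *Asns*, *Nupr1* and 1 of *Psat1* (background 9.32%). Against natural aging liver, which both of the next comparisons share, metformin liver had 1 of 13 higher, *Trib3* (background 10.3%), and 1 lower, *Chac1* (background 6.66%). APS plus metformin liver had 1 of 14 higher, *Trib3* (background 6.2%), and 5 lower, both *Asns* probes, *Chac1*, *Nupr1* and 1 of *Psat1* (background 6.54%). The median member difference was -0.11 log2 there, -0.22 log2 in metformin against natural aging liver and 0.07 log2 between the treatments, against 0.00, -0.07 and 0.09 over all probes compared.

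**Figure D2:**
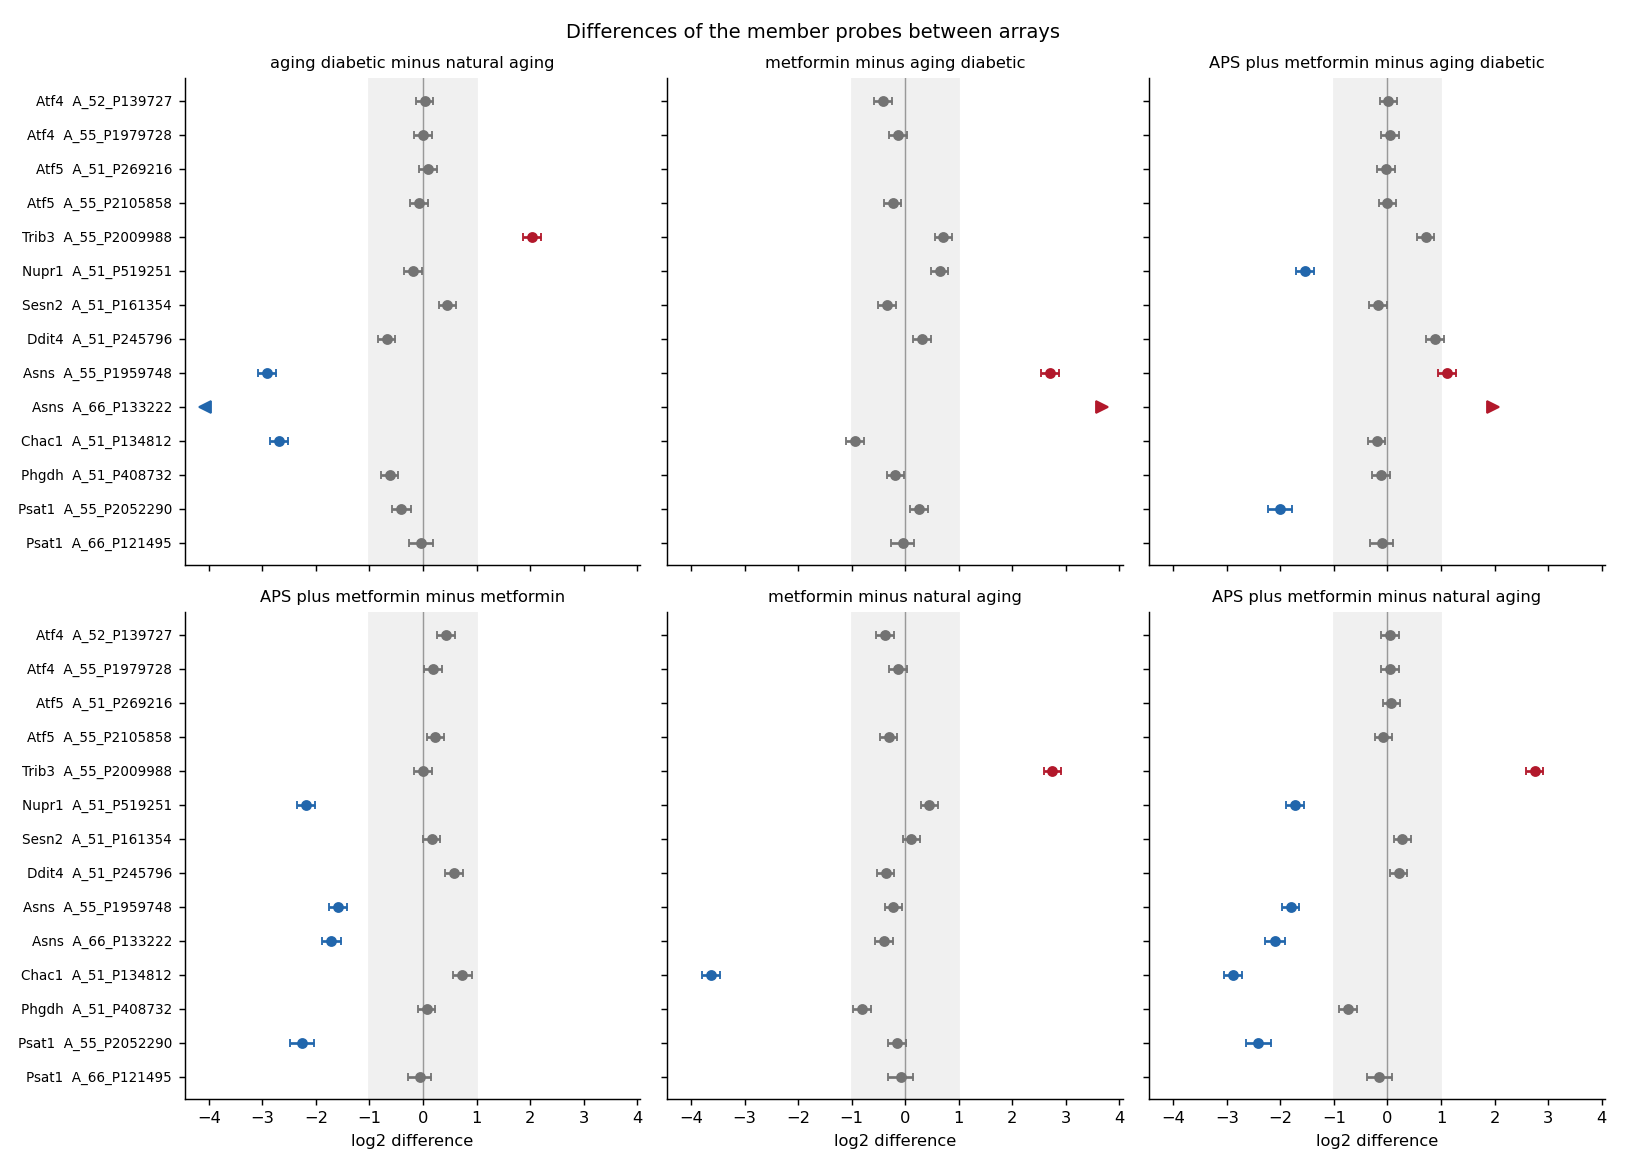
Log2 difference of each member probe in 6 comparisons of arrays, with the combined measurement error of both spots as bars. Red points are at least 2-fold higher, blue points at least 2-fold lower, grey points lie inside the shaded 2-fold band, and triangles are bounds for the *Asns* probe that was not well above background on the aging diabetic array. *Asns* is blue in aging diabetic against natural aging liver and red in both treated livers against aging diabetic liver.

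The other genes of the stress branch showed the same lack of a common direction. Of the list of 18 genes of the integrated stress response, 16 had a usable probe. In aging diabetic against natural aging liver 2 of 15 compared were higher and 2 lower, where 8.2% of 14453 genes were higher and 6.09% lower. *Gdf15*, a stress hormone, was 2.86-fold higher and the apoptosis gene *Bbc3* was 3.47-fold higher. *Atf3*, a transcription factor induced by ATF4, was 4.70-fold lower and the pseudokinase gene *Trib2* was 2.95-fold lower.

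In metformin against aging diabetic liver 3 of 16 genes of that list were higher and 0 lower (background 11.9% and 3.53% of genes), with *Atf3* 3.17-fold and *Trib2* 2.15-fold higher and the secreted glycoprotein gene *Stc2* at least 2.02-fold higher. In APS plus metformin against aging diabetic liver 1 of 16 was higher, *Trib2*, and 2 were lower (background 4.38% and 6.9%). *Ddit3*, which encodes the stress factor CHOP, was 2.74-fold lower there and *Bbc3* 2.03-fold lower. In APS plus metformin against metformin liver 0 of 16 were higher and 3 lower (background 2.37% and 12.4%): *Atf3* by 2.91-fold, *Ddit3* by 2.07-fold and *Gdf15* by 2.06-fold. In metformin against natural aging liver 2 of 16 were higher, *Gdf15* by 4.72-fold and *Bbc3* by 2.50-fold, and 1 lower, *Herpud1* (background 13% and 4.71%). In APS plus metformin against natural aging liver 2 of 16 were higher, *Vldlr* by 2.71-fold and *Gdf15* by 2.29-fold, and 1 lower, *Atf3* by 4.32-fold (background 6.14% and 6.68%). By the brightest usable probe of each gene, which these list counts use, none of the 6 measured genes of eIF2 and its kinases reached 2-fold in any of the 6 comparisons. *Eif2ak3* stood at -0.94 log2 in aging diabetic against natural aging liver, and another probe of *Gcn1*, whose product activates GCN2, at -1.09 log2 in metformin against natural aging liver.

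Among genes that act beside *Asns*, a few differed in the same direction in some comparisons. *Aldh18a1*, which starts proline synthesis from glutamate, was 3.43-fold lower in aging diabetic than in natural aging liver, 4.44-fold higher in metformin than in aging diabetic liver, and 4.55-fold lower in APS plus metformin than in metformin liver. Unlike *Asns* it was level in APS plus metformin and aging diabetic liver, at -4.17 and -4.14. Both values are low, as the lowest levels well above background on these arrays were -4.84 and -4.75. By the brightest probes *Aldh18a1* was the 1 gene of 11 compared in the proline and asparagine list past 2-fold in each of the first 2 comparisons. Over all genes 6.09% were lower in the first and 11.9% higher in the second. *Slc38a1*, a glutamine and alanine transporter, was 2.36-fold lower in aging diabetic than in natural aging liver, as the 1 gene of 15 compared transporters past 2-fold. There 6.09% of all genes were lower and 8.2% higher. With metformin 3 of 18 transporters were higher than in aging diabetic liver and 0 lower: *Slc38a1* by 2.92-fold, *Slc7a8*, a neutral amino acid exchanger, by 2.58-fold and the arginine transporter *Slc7a1* by 2.48-fold. Over all genes 11.9% were higher in that comparison.

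The transporter gene *Slc7a8* was 4.53-fold and *Slc7a1* 2.20-fold lower in APS plus metformin than in metformin liver, 2 of 18 lower and 0 higher, where 12.4% of all genes were lower. For *Slc43a1*, also of that list, the brightest probe stood at 0.98 log2 and another at 1.40 log2. In that comparison 2 of 11 genes of the proline and asparagine list were lower by their brightest probes, *Aldh18a1* among them, and 0 higher. Another probe of *Got1*, of the same list, stood at 2.00 log2 there and at -1.75 log2 in metformin against aging diabetic liver. The cystine transporter *Slc7a11* was not well above background on 3 of the arrays. The cytosolic tRNA synthetases, a group in which many genes are known ATF4 targets, stayed within 2-fold by their brightest probes: 17 of 20 had a usable probe, and 0 of 17 reached 2-fold in any of the 6 comparisons. Another probe of *Rars* stood at -1.22 log2 in metformin against aging diabetic liver. Their median difference was 0.01 log2 in aging diabetic against natural aging liver and -0.13 log2 in metformin against aging diabetic liver.

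Of the 17 genes for serine and one-carbon metabolism, 2 were higher and 2 lower in aging diabetic than in natural aging liver. Over all genes 8.2% were higher and 6.09% lower there. *Aldh1l2*, a mitochondrial folate enzyme, was 3.44-fold lower beside *Psph*, while the cytosolic *Shmt1* was 2.60-fold higher. With APS plus metformin, 2 of 17 were lower than in aging diabetic liver and 0 higher (background 6.9% and 4.38%), with *Mthfd1l* 2.64-fold lower. *Mthfd2*, the mitochondrial folate dehydrogenase that ATF4 induces, was 2.77-fold lower in APS plus metformin than in metformin liver, and its other probe differed by -1.61 log2. There 2 of 17 were lower and 1 higher (background 12.4% and 2.37%). In metformin against aging diabetic liver 0 were higher and 1 lower, *Shmt1* by 2.29-fold (background 11.9% and 3.53%). Against natural aging liver 2 were higher and 2 lower with metformin (background 13% and 4.71%). With APS plus metformin 1 was higher and 3 lower than there (background 6.14% and 6.68%). Another probe of *Slc25a32*, also of this list, stood at -1.72 log2 in aging diabetic against natural aging liver. In APS plus metformin against aging diabetic liver it stood at 1.55 log2, and the other *Mthfd2* probe at -1.11 log2. Of the 8 genes for serine and glycine breakdown, 1 reached 2-fold in the 6 comparisons by its brightest probe, *Dao*, at least 2.21-fold lower in APS plus metformin than in natural aging liver. Another probe of *Srr*, serine racemase, stood at 1.70 log2 in aging diabetic against natural aging liver, -1.89 log2 in metformin and -2.05 log2 in APS plus metformin against aging diabetic liver, and another of *Sdsl* at -1.47 log2 in metformin against aging diabetic liver.

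**Figure D3:**
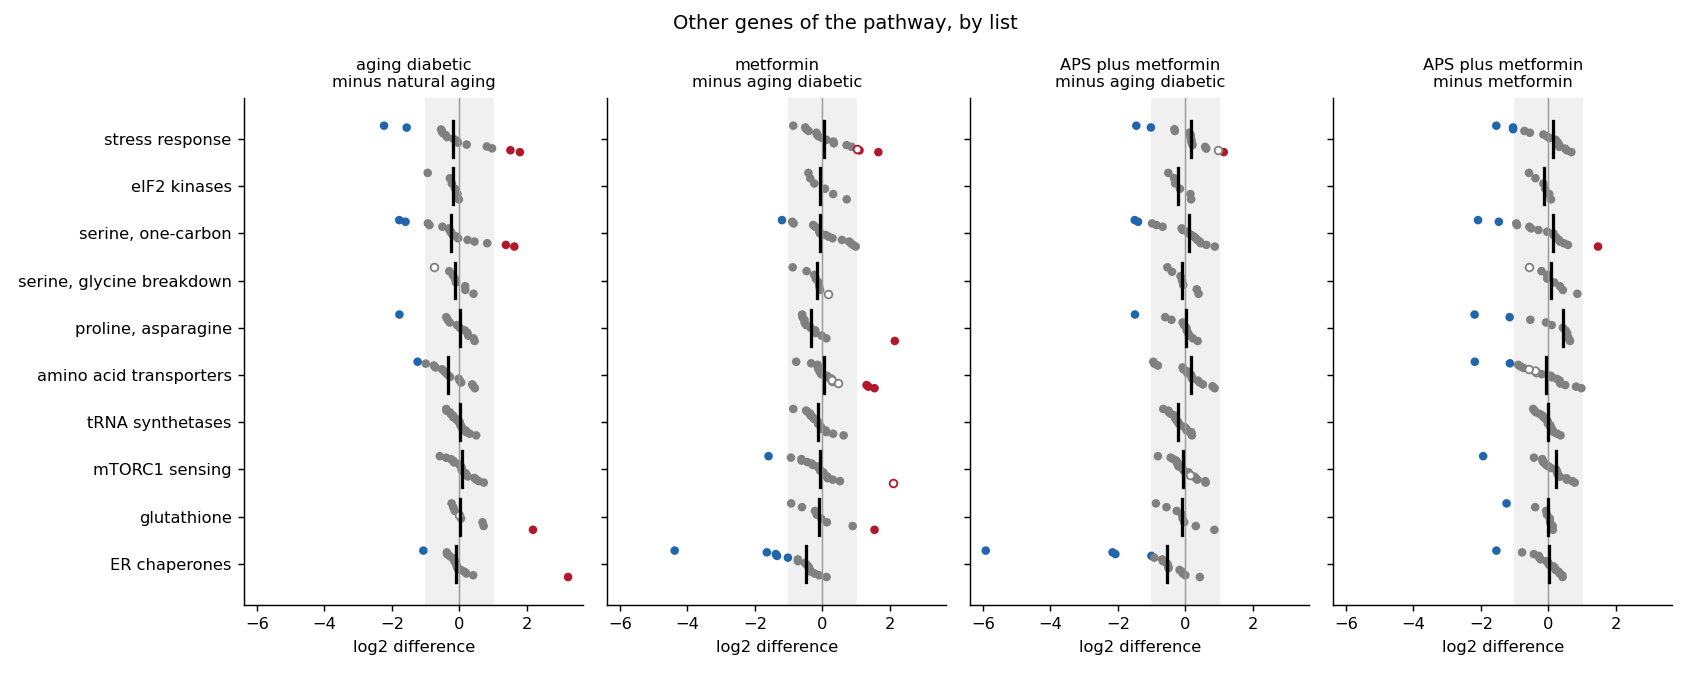
Log2 differences of the other genes of the pathway, by list (rows) and comparison (panels), 1 point per gene and a black bar at the list's median. Red and blue points are at least 2-fold higher and lower, and open points are bounds. Medians lie near 0 in most lists, the brightest probes of the tRNA synthetases stay inside the shaded 2-fold band, and the ER chaperone list lies to the left in both treated arrays against the aging diabetic array.

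ER chaperone genes, which answer to the other branches of ER stress, went another way than *Asns* in both treated livers against aging diabetic liver. By brightest probes, 5 of 16 were lower and 0 higher in metformin against aging diabetic liver, with a median of -0.49 log2. In APS plus metformin against aging diabetic liver 4 of 16 were lower and 0 higher, with a median of -0.54 log2. Over all genes 3.53% and 6.9% were lower, and the medians were 0.00 and 0.02 log2. Another probe of *Dnajb11* stood at -1.48 log2 with metformin but at 1.38 log2 with APS plus metformin, against aging diabetic liver. Another probe of *Hspa5* stood at -1.13 log2 in the first of these comparisons, and another of *Hyou1* at -2.01 log2 in the second. Against natural aging liver 4 of 16 were lower and 0 higher with metformin, and the same with APS plus metformin (background 4.71% and 6.68% lower). The medians were -0.74 and -0.68 log2, where *Asns* stayed within 2-fold with metformin and was lower with APS plus metformin. Against natural aging liver that other *Dnajb11* probe stood at -1.22 log2 with metformin and at 1.64 log2 with APS plus metformin. *Derl3* acts in the disposal of misfolded proteins. It stood at -4.14 in APS plus metformin, -2.60 in metformin, 1.78 in aging diabetic and -1.45 in natural aging liver. Against aging diabetic liver *Derl3* was 20.8-fold lower with metformin and 60.5-fold lower with APS plus metformin. The chaperone cofactor gene *Sdf2l1* was 3.13-fold and 4.21-fold lower. *Derl3* was also 9.35-fold higher in aging diabetic than in natural aging liver. Against natural aging liver it was 2.23-fold lower with metformin and 6.47-fold lower with APS plus metformin. The mTORC1 regulators that neighbour *Sesn2* and *Ddit4* mostly stayed within 2-fold, with 1 of 19 higher and 1 lower in metformin against aging diabetic liver. Over all genes 11.9% were higher and 3.53% lower in that comparison. *Nprl2*, a GATOR1 subunit that restrains mTORC1, was 3.02-fold lower there, and the Rag GTPase gene *Rragd* was at least 4.24-fold higher by 1 probe and differed by 0.61 log2 by its other probe.

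Other RNA in these livers moved along with some members. Exocrine pancreas markers, of which 18 of 20 had a usable probe, summed to 5.72 times the 75th percentile on the APS plus metformin, 30.6 on the metformin, 13.6 on the aging diabetic and 121 on the natural aging array. On the APS plus metformin array 8 of the 18 were well above background, and *Amy2b*, *Cpa1*, *Prss2* and *Reg1* were among those that were not. On the metformin array all 18, on the aging diabetic array 17 and on the natural aging array all 18 were well above background. In a bulk sample fewer cells of a type and less RNA per cell cannot be told apart.

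The pancreas list differed in the same direction as *Asns* in aging diabetic against natural aging liver (17 of 18 lower, median -4.10 log2) and in metformin against aging diabetic liver (14 of 18 higher, median 1.99 log2). It also went with *Asns* in APS plus metformin against metformin liver (16 of 18 lower, median -3.43 log2), where *Nupr1* and 1 *Psat1* probe were lower too, and in APS plus metformin against natural aging liver (18 of 18 lower, median -6.74 log2). In APS plus metformin against aging diabetic liver 14 of 17 pancreas markers were lower (median -1.79 log2) while both *Asns* probes were higher. In metformin against natural aging liver 17 of 18 were lower (median -2.20 log2) while *Asns* stayed within 0.39 log2. Over all genes at most 13% were higher and at most 12.4% lower in any comparison. *Chac1* was highest on the array with the highest sum of pancreas markers, and in metformin against aging diabetic liver it was lower where the pancreas list was higher. *Nupr1* and probe A_55_P2052290 of *Psat1* were lowest on the array with the lowest sum of pancreas markers. They differed by -0.19 ± 0.16 and -0.40 ± 0.17 log2 in aging diabetic against natural aging liver, where the median of the pancreas list was -4.10 log2.

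Markers of dividing cells, lymphocytes and matrix-producing cells were also higher with metformin and lower in aging diabetic liver, as *Asns* was. The median level of 10 cell cycle genes was -2.74 on the APS plus metformin, -0.18 on the metformin, -2.76 on the aging diabetic and -1.40 on the natural aging array. In metformin against aging diabetic liver 8 of 10 cell cycle, 9 of 11 lymphocyte and 5 of 8 matrix genes were higher and none lower. In aging diabetic against natural aging liver 4 of 10, 5 of 10 and 2 of 8 were lower and none higher. Over all genes 11.9% were higher in the former comparison and 6.09% lower in the latter. Where both *Asns* probes were lower in APS plus metformin than in metformin liver, 8 of 10 cell cycle (median -2.59 log2), 10 of 11 lymphocyte (median -1.71 log2) and 2 of 8 matrix genes were lower and none higher. Between the treatments 12.4% of all genes were lower. In metformin against natural aging liver 7 of 10 cell cycle and 7 of 11 lymphocyte genes were higher and none lower, while *Asns* differed by -0.22 ± 0.16 log2. Over all genes 13% were higher in that comparison. The summed levels of the lists, in the order APS plus metformin, metformin, aging diabetic and natural aging, were 9.33, 17.2, 8.12 and 11.2 for the cell cycle, 2.12, 6.02, 1.497 and 2.79 for lymphocytes, and 26.2, 33.0, 19.1 and 31.8 for the matrix list. In metformin against aging diabetic liver 2 of 9 macrophage genes were higher and 2 lower, 1 of 8 endothelial genes was higher, and 2 of 5 adipocyte genes were higher. The part of these cells in the differences of the members was not tested.

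**Figure D4:**
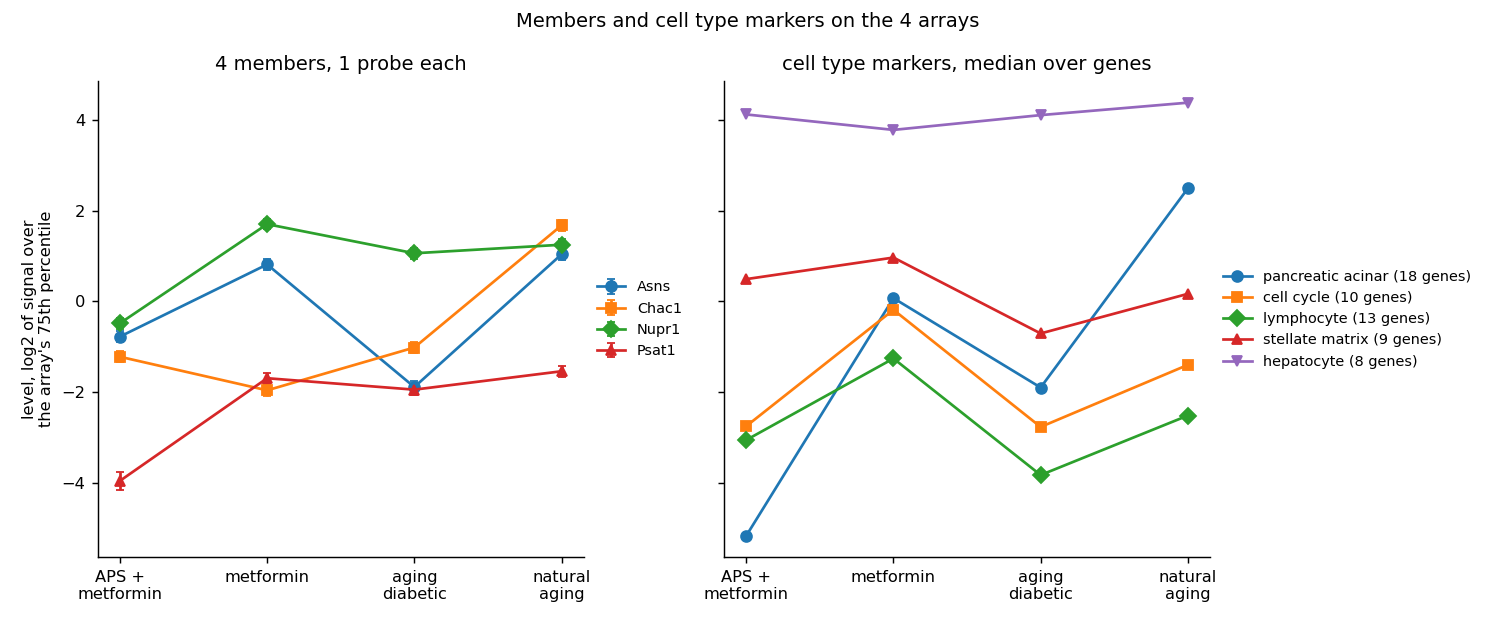
Left, levels of 4 members by 1 probe each with the spot's error as bars; right, the median level of 5 cell type marker lists on the same 4 arrays, both as log2 over the array's 75th percentile. *Asns*, cell cycle, lymphocyte and matrix genes are each higher on the metformin than on the aging diabetic array, hepatocyte medians lie between 3.77 and 4.37, and the pancreas median is -5.16 with APS plus metformin and 2.49 in natural aging liver.

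Members were also set beside all genes for likeness of pattern, as the root-mean-square distance over the 4 arrays between levels centred on each gene's mean, among 12688 genes well above background throughout. *Chac1* and *Asns*, with the widest ranges, were used. Nearest to *Chac1* were the sulfotransferase gene *Sult5a1* at 0.22 log2, *Gm16551*, *Asic5*, the ephrin gene *Efna1* and *Bcl2l11*, a cell death gene, at up to 0.48 log2. Nearest to *Asns* were *Ttc39a* at 0.13 log2, *Gm38416*, the macrophage folate receptor gene *Folr2*, *1810013A23Rik*, and *Pdk4*, which restrains pyruvate oxidation, at up to 0.29 log2. With 4 arrays and so many genes searched, this is a description of these arrays.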

How the data were processed

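Spot intensity from 4 one-colour (Cy5) Agilent arrays was used as deposited. Per the file headers, the authors' image analysis (Agilent Feature Extraction 11.5.1.1; version 10.7 per the submitters' processing notes) subtracted background and removed spatial trends within each array, gave an error for each intensity, and set other columns of flags of 0 or 1. The authors' deposited series table holds log2 values normalized in GeneSpring, per the labels' protocols, by a method not given in the sources used here; it served as an alternative.

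The log2 intensity minus each array's 75th percentile was computed with Python 3.11.15, numpy 2.4.6 and pandas 2.3.3. Control spots and spots flagged as outliers were left out. Accessions were matched without version to RefSeq genes of GRCm38.p6, which named 33767 of 56605 probes. A probe was compared where at least 1 of 2 arrays was well above background; with 1 such array the difference is a bound, taken on the dim array from its own signal or from its dimmest spot still well above background, whichever is brighter. For lists, the brightest usable probe stood for a gene (22047 genes). Older symbols were used where the table has them.

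A test was not possible, since no group has a second array. The number of arrays limits the precision. Calls were checked on simulated pairs of arrays, with planted increases larger than the threshold and measurement error only. Decreases and spread between animals were not simulated, so that check does not bear on them. The members, the 10 pathway lists and the 8 marker lists were chosen with earlier results of these data known. Named genes are all members, up to 4 genes per list and comparison with the largest differences past 2-fold, the 5 nearest patterns of the 2 widest members, and marker genes. Outside the ranking, *Psph*, *Eif2ak3*, *Gcn1*, *Rars*, *Srr*, *Sdsl*, *Slc7a11*, *Slc43a1* and *Got1* were named after their values were seen. So were *Dnajb11*, *Hspa5*, *Hyou1* and the pancreas genes not well above background. Some genes that the rule would name are counted in their lists and not reported here by name. Alternatives were quantile normalization and cyclic loess (limma 3.58.1 in R 4.3.3), median scaling, normexp background correction with an offset of 50, the authors' values, outlier spots kept, no bounds, thresholds of 1.5-fold and 3-fold, and the mean over a gene's probes.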

Additional observations from a re-analysis of the deposited data

How the results depend on the processing

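No paired analysis was possible because each group has 1 array. No member difference past 2-fold changed sign under any alternative run, and 3 calls changed at 2-fold under another scaling or background correction. Under median scaling *Chac1* was lower in metformin than in aging diabetic liver (-1.11 log2) and *Phgdh* lower in metformin than in natural aging liver (-1.02), which gave 1 and 2 lower member probes, against 0 and 1. Under normexp correction, run on the median signal and chosen after seeing the data because the files hold no mean signal, the first *Asns* probe stood at 0.98 log2 in APS plus metformin against aging diabetic liver, which left 1 higher, against 2. Without bounds, 1 member probe was higher in metformin and 1 in APS plus metformin against aging diabetic liver, against 2 in each. The second *Asns* probe was then also not counted as lower in aging diabetic against natural aging liver. At 1.5-fold, 5 were lower in aging diabetic against natural aging liver (3 at 2-fold), 4 higher and 1 lower in metformin (2 and 0) and 4 higher in APS plus metformin (2) against aging diabetic liver, 1 higher in APS plus metformin against metformin liver (0), and 2 lower in metformin against natural aging liver (1). At 3-fold, 1 was higher and 1 lower in APS plus metformin against aging diabetic liver (2 and 2). Other changes of a count by 1.5 times or less are not listed. Differences short of 2-fold that turned sign between scalings include those of *Atf4*, *Atf5*, *Trib3* and *Phgdh* between the treatments.

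Median scaling moved the median of all genes to -0.17 log2 in metformin against aging diabetic liver and to 0.13 between the treatments. It gave 1427 genes higher and 805 lower, against 1851 and 549, in metformin against aging diabetic liver. It gave 583 higher and 1500 lower, against 370 and 1939, between the treatments, and 1490 higher and 1178 lower, against 2021 and 732, in metformin against natural aging liver. Cyclic loess moved that median to -0.17 between the treatments. Of 120 list counts per alternative, 3 to 18 moved by more than 1.5 times. Without replicates no difference can be set against the spread between animals. Low signals carry the widest errors, among the members 0.40 log2 for the second *Asns* probe on the aging diabetic array. Next came probe A_55_P2052290 of *Psat1* on the APS plus metformin array, with 0.20 log2.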

Other observations

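Folate and glutathione genes outside the members held some of the wider differences of the lists. *Slc25a32*, the mitochondrial folate carrier, was 2.78-fold higher in APS plus metformin than in metformin liver (1.47 ± 0.16 log2), with levels of 1.86 and 0.38. *Ggt6*, of the γ-glutamyltransferase family, stood at 0.61 in APS plus metformin, 0.56 in metformin, 1.48 in aging diabetic and -0.70 in natural aging liver, so all 3 diabetic arrays were above the natural aging array, as for *Trib3*. It was 4.55-fold higher in aging diabetic than in natural aging liver (2.18 ± 0.16 log2), where *Chac1*, which also acts on γ-glutamyl compounds, was 6.44-fold lower. Each of these differences rests on 1 probe and 1 array per group. *Deptor*, an inhibitor of mTORC1, was 2.50-fold lower in metformin than in natural aging liver (-1.32 ± 0.16 log2). Of 8 glutathione genes compared, 1 was higher in aging diabetic than in natural aging liver (background 8.2% of genes). With metformin 1, *Ggt1*, was higher than in aging diabetic liver (background 11.9%). In APS plus metformin against aging diabetic liver 0 reached 2-fold. Between the treatments 1, *Ggt1*, was lower in APS plus metformin liver (background 12.4%). Against natural aging liver 3 were higher with metformin (background 13%) and 2 with APS plus metformin (background 6.14%), *Ggt6* among them each time.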
